A study of Mus musculus with 10 samples.

Results

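The 54 genes described here encode proteins of the centrosome and its centrioles, together with 3 genes that were included with them although their best-known roles lie elsewhere or are little described (Cep55, Cep95 and Azi2). They were chosen by gene symbol, out of 21774 protein-coding genes of the annotation, and looked up in 2 lists of transcription start sites (TSSs) that carried an ARID2 CUT&RUN signal in mouse spermatogenic cells. Of the 54 genes, 18 were listed under their own name at postnatal day (P) 28, where 16.8% of all protein-coding genes were listed. At P28.5, 17 were listed by name, where 11.6% of all protein-coding genes were. The 14 genes named at both ages, where 8.48% of all protein-coding genes were named, included the centriole assembly factor Stil, the centrins Cetn3 and Cetn4, the appendage protein Odf2 and the satellite scaffold Pcm1. Cep89 was listed at its start only at P28, and Cntln, Cep83 and Alms1 only at P28.5.

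A centrosome is a pair of centrioles, short cylinders of microtubules, set in pericentriolar material that anchors the gamma-tubulin rings from which microtubules grow. New centrioles form beside old ones on a cartwheel scaffold, and the older centriole carries distal and subdistal appendages that let it dock at a membrane and template a cilium. In the male germline centrosomes organise the spindle poles of the meiotic divisions, and a centriole of the spermatid later becomes the base of the sperm tail.

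CUT&RUN sequences DNA released from chromatin by a nuclease that an antibody tethers to its target, here ARID2, a subunit specific to the PBAF form of the SWI/SNF chromatin remodeler. The cells came from testes of CD1 strain wild-type mice, in which WIN 18,446 (100 ug per g from P1 to P10) held back spermatogonial differentiation and a single dose of retinoic acid at P11 (10 ul of 10 ug per ul) started it in step, so that P28 and P28.5 lie 17 and 17.5 days later. Every age had 2 ARID2 libraries, 2 libraries for BRG1, the ATPase of the remodeler, and 1 control without primary antibody. Only the ARID2 lists were analysed here, and all 6 groups shared the same treatment, so there is no untreated or ARID2-deficient group beside them. Each list gives positions and gene names of the ARID2-enriched cluster, made by the authors from averaged replicates, without strand, signal or read count. No replicate error could therefore be given for any value below, no test was run, and a gene was either listed or not. The cell type on the labels could not be checked against marker levels, since a list of TSSs holds none.

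A name in the list and a listed position near the gene were counted separately, because a position can carry a neighbour's name. The second count took listed positions of any name up to 2000 bp from an annotated 5′ end of the gene in RefSeq for GRCm38.p6, the assembly that mm10 stands for. It gave 22 of the 54 genes at P28, where 17.3% of all protein-coding genes had such a position. At P28.5 it gave 25 genes, where 14.8% of all protein-coding genes did. At both ages it gave 21 genes, where 10.9% of all protein-coding genes did. Listed positions are annotated RefSeq TSSs and not measured peaks, so their distances from 5′ ends do not locate the ARID2 signal. The positions in both lists are mostly the lower coordinate of a transcript, which is the 5′ end of a plus-strand gene and the 3′ end of a minus-strand gene. Hence the start of a minus-strand gene could be listed almost only where the lower end of another transcript lay close to it, and for 16 of the 54 genes none was annotated within 2000 bp. For those 16 genes the absence of a nearby position carries no information on ARID2.

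The starts of 6 genes are printed here because they carried listed positions or lie beside them, with the start of Sass6 as a gene with no listed position. Each sequence is 300 bases of RefSeq promoter sequence on GRCm38.p6, from 250 bases before to 50 bases after an annotated 5′ end, written 5′ to 3′ on the plus strand, where all 7 genes lie. Capitals mark exact matches, on either strand, to CCAAT (the NF-Y box), to GGGCGG (the GC box) or to CGCATGCG (named for NRF1). Odf2 and Stil, listed at both ages, lie at chr2:29889740-29890039 and chr4:114999868-115000167, and these windows held 8 and 3 listed positions.
Odf2: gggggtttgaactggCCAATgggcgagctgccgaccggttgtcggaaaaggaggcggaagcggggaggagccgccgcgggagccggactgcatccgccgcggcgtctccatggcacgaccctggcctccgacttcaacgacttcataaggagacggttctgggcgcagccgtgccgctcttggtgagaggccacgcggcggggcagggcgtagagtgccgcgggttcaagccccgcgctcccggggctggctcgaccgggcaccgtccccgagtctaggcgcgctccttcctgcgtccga
Stil: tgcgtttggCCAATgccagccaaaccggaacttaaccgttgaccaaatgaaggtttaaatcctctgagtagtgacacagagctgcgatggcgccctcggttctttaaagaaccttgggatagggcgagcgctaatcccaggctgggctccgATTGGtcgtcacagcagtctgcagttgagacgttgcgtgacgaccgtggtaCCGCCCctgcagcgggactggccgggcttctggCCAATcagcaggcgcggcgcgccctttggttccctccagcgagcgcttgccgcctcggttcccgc

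Cep89, listed at P28 only, lies at chr7:35396813-35397112 with 3 listed positions in the window. It is the poorest in CpG of the 7 starts, with 12 CpG dinucleotides in 300 bases and 52.7% G and C.
Cep89: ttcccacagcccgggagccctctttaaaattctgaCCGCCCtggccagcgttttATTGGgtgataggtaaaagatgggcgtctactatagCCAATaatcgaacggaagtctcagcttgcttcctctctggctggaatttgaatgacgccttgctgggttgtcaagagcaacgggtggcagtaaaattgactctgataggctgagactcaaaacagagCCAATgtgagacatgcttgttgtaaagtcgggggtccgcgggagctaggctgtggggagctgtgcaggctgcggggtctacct

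Cntln, Cep83 and Alms1, listed at P28.5 only, lie at chr4:84884059-84884358, chr10:94688540-94688839 and chr6:85587281-85587580. Their windows held 1, 1 and 5 listed positions, and 26, 46 and 25 CpG dinucleotides. Cep83 had the highest G and C content of the 7, with 75.7%.
Cntln: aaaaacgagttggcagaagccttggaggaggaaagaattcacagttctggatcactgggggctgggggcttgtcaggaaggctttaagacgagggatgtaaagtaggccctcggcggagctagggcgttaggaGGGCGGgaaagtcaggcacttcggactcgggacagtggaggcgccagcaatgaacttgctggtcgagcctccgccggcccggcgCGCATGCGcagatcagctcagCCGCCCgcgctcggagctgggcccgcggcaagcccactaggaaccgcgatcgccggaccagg
Cep83: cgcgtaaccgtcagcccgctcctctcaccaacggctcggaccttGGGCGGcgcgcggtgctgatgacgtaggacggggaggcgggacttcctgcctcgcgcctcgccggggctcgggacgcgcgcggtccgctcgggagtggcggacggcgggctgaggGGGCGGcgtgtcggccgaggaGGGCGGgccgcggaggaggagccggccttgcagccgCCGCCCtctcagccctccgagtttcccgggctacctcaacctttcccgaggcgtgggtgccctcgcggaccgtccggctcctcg
Alms1: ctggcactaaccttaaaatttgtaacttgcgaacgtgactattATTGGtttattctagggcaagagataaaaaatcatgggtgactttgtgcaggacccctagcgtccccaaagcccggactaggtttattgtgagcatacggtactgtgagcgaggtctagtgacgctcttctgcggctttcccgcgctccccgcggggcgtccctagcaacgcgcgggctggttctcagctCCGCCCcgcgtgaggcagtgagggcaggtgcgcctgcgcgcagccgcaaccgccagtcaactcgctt

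Sass6 lies at chr3:116594708-116595007. It had 25 CpG dinucleotides, about as many as Stil (26) and Alms1, without a listed position at either age and with none of the 3 capitalised motifs.
Sass6: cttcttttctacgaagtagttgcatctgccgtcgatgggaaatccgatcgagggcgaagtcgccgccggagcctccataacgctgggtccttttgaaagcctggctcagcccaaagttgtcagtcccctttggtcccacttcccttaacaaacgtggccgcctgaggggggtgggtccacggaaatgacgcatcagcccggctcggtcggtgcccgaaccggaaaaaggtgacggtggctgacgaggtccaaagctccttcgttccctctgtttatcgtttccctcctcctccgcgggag

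The map of listed positions by gene shows how the 54 genes divided. In 14 genes, positions under the gene's own name lay near a 5′ end at both ages, and 4 more had such positions at 1 age. A further 7 genes had nearby positions only under a neighbour's name at both ages, and Cep78 had one at P28.5 alone. Cep135, Cep97 and Cep68 were listed by name at P28, but farther than 2000 bp from their 5′ ends. Of the remaining 25 genes, which had neither, 14 had no lower transcript end near their start and 11 had one.

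**Figure D1:**
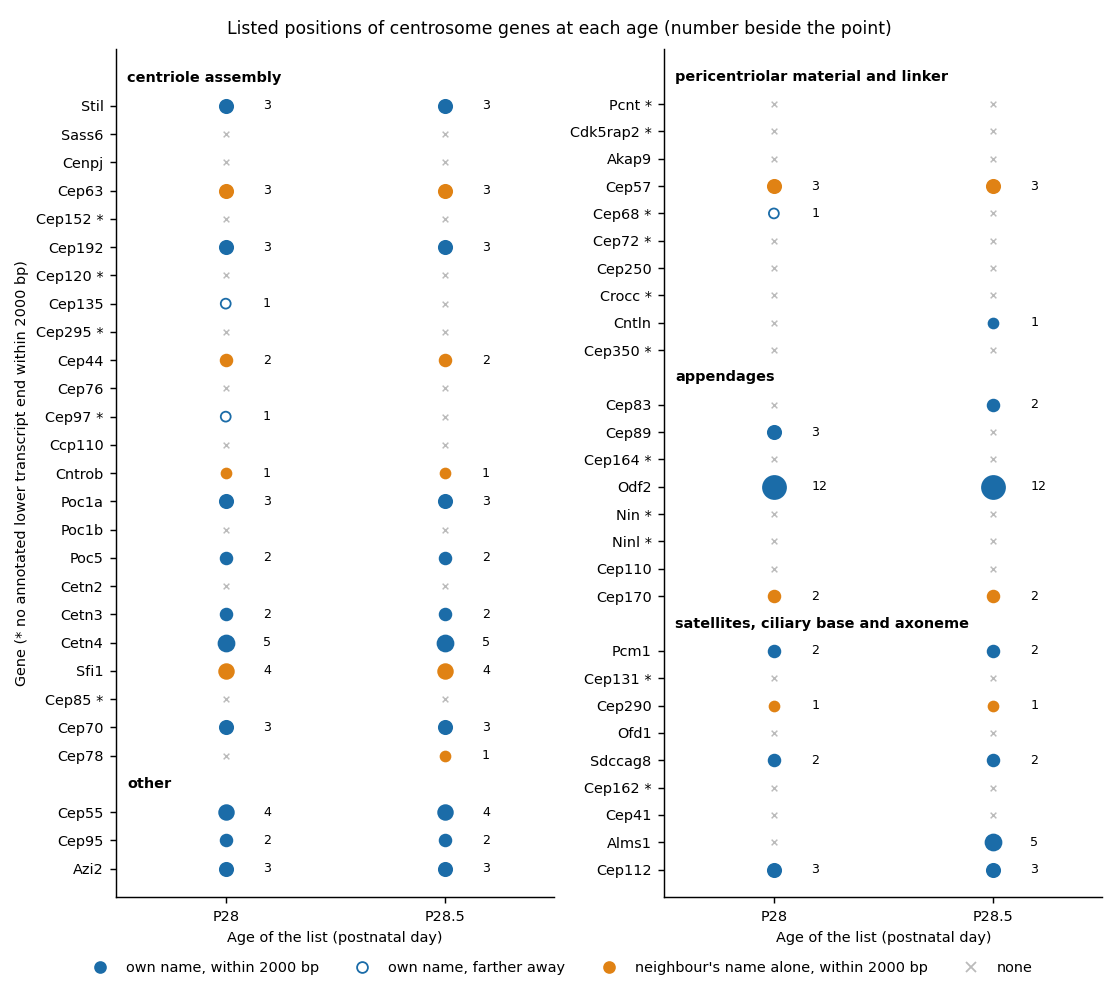
Listed positions of each of the 54 genes in the P28 and P28.5 lists, by role. Point area grows with the number of distinct positions, which is printed beside it, and a cross marks a gene with none. Odf2 has the most, 12 at each age, and single-age points are seen at Cep135, Cep97, Cep68 and Cep89 for P28 and at Cep78, Cntln, Cep83 and Alms1 for P28.5.

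Among the 24 centriole assembly genes, 7 were named at both ages, 2 at P28 alone and none at P28.5 alone. Stil, which recruits the cartwheel protein at the onset of centriole duplication, had 3 positions, at chr4:115000108, 115000113 and 115000118. All 3 equalled annotated 5′ ends and were listed at both ages. Cep192, a scaffold that recruits the duplication kinase to the parent centriole, had 3 positions within 6 bp of a 5′ end, again the same at both ages. The listed positions of Poc1a, a protein of the centriole wall, lay within 39 bp of its downstream 5′ end, 1618 bp from the outermost one. For Poc5, a centrin-binding protein of the inner scaffold, 2 positions equalled 5′ ends.

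The centrins are small calcium-binding proteins of the centriole lumen. Cetn3 had 2 positions, 2 and 45 bp into the gene from its downstream 5′ end, 2611 bp from the outermost one. Cetn4 was the only minus-strand gene named near its own start at both ages, with 1 position 39 bp upstream of its 5′ end. The same divergent start held 4 positions under Bbs12, a gene of the Bardet-Biedl syndrome chaperonin complex, 101 to 305 bp away. Cetn2, which is X-linked, was not listed at either age. Cep70, a microtubule-associated centrosome protein, had 3 positions within 16 bp of 5′ ends far inside its longest annotation, and the 5′ end that equalled a listed position was 59913 bp from the outermost start.

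Sass6, the cartwheel protein, was not listed, nor were Cenpj, which sets centriole length, Poc1b, a paralog of Poc1a, Ccp110, which caps the growing end, or Cep76, which limits reduplication. All 5 had a lower transcript end near a start, so that a position could have been listed. The nearest P28 position to the start of Sass6 was 264609 bp away, in Frrs1. Ccp110 had its nearest at 27654 bp, and Cenpj had its nearest at 92745 bp at both ages. By contrast Cep152, Cep120, Cep295 and Cep85 are minus-strand genes without such an end. Cep152, which cooperates with Cep63 at the base of the new centriole, had its nearest P28 position 47926 bp away.

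A further 5 centriole assembly genes had nearby positions under other names only. Cep63 shares its start with Anapc13, a subunit of the anaphase-promoting complex, and 3 Anapc13 positions lay 36, 49 and 164 bp upstream of a Cep63 5′ end. Cep44 had 2 Fbxo8 positions, 258 and 440 bp upstream. Cntrob, a protein of the daughter centriole, had 1 Trappc1 position 88 bp upstream. Sfi1, a centrin-binding protein, differed in that the 4 Eif4enif1 positions lay inside its first part, 634 to 984 bp downstream of its 5′ end. The positions beside these 4 genes were the same at both ages. Cep78 had 1 position, 61 bp upstream of a 5′ end, under C130060C02Rik and at P28.5 only. Without strand or signal, enrichment at either gene of such a pair cannot be told apart.

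**Figure D2:**
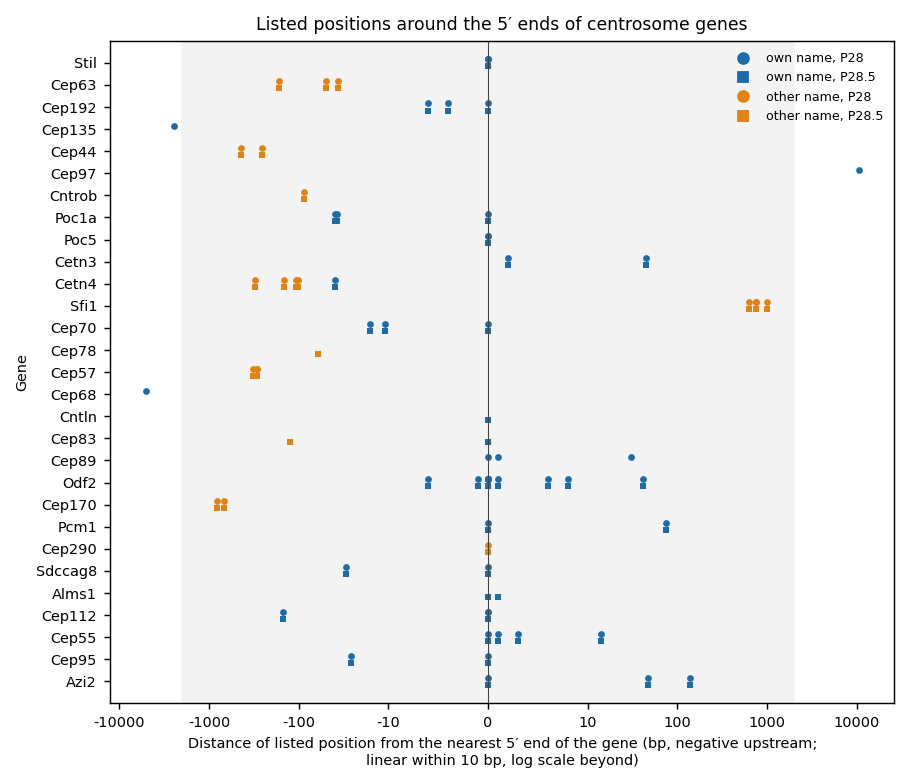
Distance of each listed position from the nearest 5′ end of the gene, in bp, negative upstream, with circles for P28 and squares for P28.5. The axis is linear within 10 bp and logarithmic beyond, and the shaded band is the 2000 bp window. Positions under the gene's own name gather at 0, whereas Cep135, Cep97 and Cep68 lie outside the band. Listed positions are annotated TSSs, so these distances do not locate the ARID2 signal.

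The pericentriolar material and linker genes were listed at shares near those of all protein-coding genes, 10% by name at each age and 10% and 20% by position at P28 and P28.5. Of these 10 genes none was named at both ages, Cep68 was named at P28 alone and Cntln at P28.5 alone. On the minus strand were 7 of the 10, and only 4 had a lower transcript end near a start. The scaffolds Pcnt and Cdk5rap2, which hold gamma-tubulin rings at the centrosome, were not listed, nor were Cep72, Cep350 and the rootlet protein Crocc, and none of these 5 had such an end. Akap9, a further scaffold, and Cep250, which ties the centriole pair together, did have one and were not listed. Their nearest P28 positions were 124555 and 32248 bp away. Cep57, which connects centrioles and pericentriolar material, had 3 positions of its divergent neighbour Fam76b, 293 to 320 bp upstream, at both ages. Cntln, a linker protein, had 1 position, at chr4:84884309, which equalled an annotated 5′ end 2522 bp from the outermost one. It was listed in 2 rows at P28.5, while the nearest P28 position was 205993 bp away.

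Among the 8 appendage genes, 25% were named at each age, beside 16.8% and 11.6% of all protein-coding genes. A lower transcript end lay near a start in 5 of the 8. Odf2 stood out by number of positions. Odf2 is a component of the appendages and also a main protein of the outer dense fibres of the sperm tail. It had 12 distinct positions in 26 rows at each age, spread over 1058 bp from chr2:29889242 to 29890300, each within 41 bp of an annotated 5′ end. The annotation gives it 38 transcripts with 20 different 5′ ends, the most 5′ ends of all 54 genes, and the number of positions cannot be told apart from this number of annotated starts. Over the 14 genes named near a start at both ages, the number of positions ran from 1 to 12, with a median of 3.

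Cep89 and Cep83, both needed for the distal appendages, were listed at opposite ages. Cep89 had positions at chr7:35397000, 35397001 and 35397093 at P28, at most 30 bp from a 5′ end. In the P28.5 list the nearest position was 62762 bp away. Cep83 had none near its start at P28, where the nearest position was 621922 bp away. At P28.5 it had chr10:94688790, which equalled a 5′ end, and a second position under its antisense gene Cep83os, 126 bp upstream of its other 5′ end. Whether these 2 genes differed in ARID2 signal between ages was not tested, since the lists hold no signal. Cep164, Nin and Ninl, the other appendage proteins on the minus strand without a nearby lower end, were not listed. Cep110, matched through its synonym to Cntrl, was on the plus strand and was not listed either. Cep170 had 2 positions 681 and 808 bp upstream, both under the name of Sdccag8, which is itself one of the 54 genes and starts on the other strand.

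Among the 9 genes of satellites, ciliary base and axoneme, Pcm1, Sdccag8 and Cep112 were named at both ages. Pcm1, the scaffold of the centriolar satellites, had 2 positions in 10 rows, 0 and 75 bp from 5′ ends. Sdccag8, a protein of the ciliary base, had 2 positions in 9 rows, 0 and 30 bp away. Cep112 had 3, of which 1 was 150 bp upstream and 2 equalled 5′ ends. Cep290, a protein of the ciliary transition zone, was not named, but its outermost 5′ end, chr10:100487548, was itself in both lists under Tmtc3, its neighbour. Alms1, which is mutated in Alström syndrome and sits at the ciliary base, was listed at P28.5 alone, with 5 positions between chr6:85587499 and 85587531 in 9 rows. These lay at most 1 bp from 5′ ends, and the nearest P28 position was 135993 bp away. Ofd1, on the X chromosome, and Cep41, which takes part in tubulin glutamylation, had a lower end near a start and were not listed. The satellite protein Cep131 and Cep162 had none and were not listed either.

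All 3 genes outside these roles were named at both ages, where 8.48% of all protein-coding genes were. Cep55, which acts at the midbody in abscission and in germ cells at the intercellular bridges, had 4 positions in 10 rows, at most 14 bp from 5′ ends. Cep95 had 2, 0 and 26 bp away. Azi2, known as an adaptor of the kinase TBK1 rather than as a centrosome protein, had 3, up to 139 bp away. Without Azi2 the counts by name were 17 at P28 and 16 at P28.5.

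Genes listed at both ages were listed at the same bases. Both lists draw on annotated RefSeq TSSs, so identical bases follow largely from the annotation and do not locate the ARID2 signal. All 14 genes named at both ages had identical sets of positions in the 2 lists, 45 positions in all. Over all protein-coding genes named at both ages, 1524 of 1847 (82.5%) did. The positions under neighbours' names were also identical for the 7 genes concerned. Differences between ages were thus of whole genes. By name 7 of the 54 genes were listed at 1 age, 4 at P28 and 3 at P28.5 (42.9% of the 7). Of all 21774 protein-coding genes 2495 were, 1814 at P28 and 681 at P28.5 (27.3%). With 7 genes the difference was not tested. The 2 lists also differ in peak support. The paper reports that a smaller share of the ARID2-enriched TSSs overlapped called peaks at P28.5 than at P28.

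Of the 4 genes named at P28 alone, Cep89 was listed at its start like the 3 genes named at P28.5 alone, while Cep135, Cep97 and Cep68 had no row within 2000 bp of a 5′ end, as had 34.6% of all protein-coding genes named at P28 alone. Cep135, which links the cartwheel to the centriole wall, had 1 intronic position at chr5:76591714, 2426 bp upstream of its nearest 5′ end. Cep97, the partner of Ccp110 at the centriole cap, had chr16:55924361 in 3 rows, the annotated 3′ end of one of its own minus-strand transcripts, lying 10487 bp into the gene. Cep68, a linker protein, had chr11:20254513, which lay 5089 bp upstream of its start. All 3 genes named at P28.5 alone lay within the window, and 2.5% of all protein-coding genes named at that age alone did not. Counted by position instead, 1 gene was near a listed position at P28 alone (Cep89) and 4 at P28.5 alone (80% of these 5). Over all protein-coding genes 1386 were near one in the earlier list alone and 840 in the later list alone (37.7% in the later). With 5 genes the split was not tested.

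Strand divided the 54 genes further. Of the 25 plus-strand genes, 15 were listed by position at P28 (60%) and 17 at P28.5 (68%), beside 25% and 20.9% of all plus-strand protein-coding genes. Of the 29 minus-strand genes, 7 and 8 were (24.1% and 27.6%), beside 9.58% and 8.62%. Each of these minus-strand genes shared its start region with a listed neighbour. Counted by name, the plus-strand shares were 60% and 64%, beside 26% and 20.4% of all plus-strand protein-coding genes. The minus-strand shares by name were 10.3% and 3.45%, beside 7.61% and 2.86%. A 5′ end of another gene on the other strand lay within 1000 bp of a start in 22 of the 54 genes. It did in 4735 of all 21774 protein-coding genes. By name 27.3% of the 22 were listed at each age, beside 28.4% and 24.2% of all such genes. By position 59.1% and 63.6% were, beside 39.9% and 38.3%. Of the 32 without such an end, 37.5% and 34.4% were named, beside 13.6% and 8.12%. The part of shared starts in the counts was not tested. Among the 38 genes with a lower transcript end within 2000 bp of a start, 22 (57.9%) had a nearby position at P28. At P28.5 it was 25 genes (65.8%). Of all such protein-coding genes 24.1% and 20.6% had one. Names gave 42.1% and 44.7% of the 38, beside 21.5% and 16.1% of all such genes. Of the 11 genes with such an end and no listing at all, Cetn2 and Ofd1 are X-linked, and of all 963 X-linked protein-coding genes 0 were listed by position at P28 and 2 at P28.5.

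**Figure D3:**
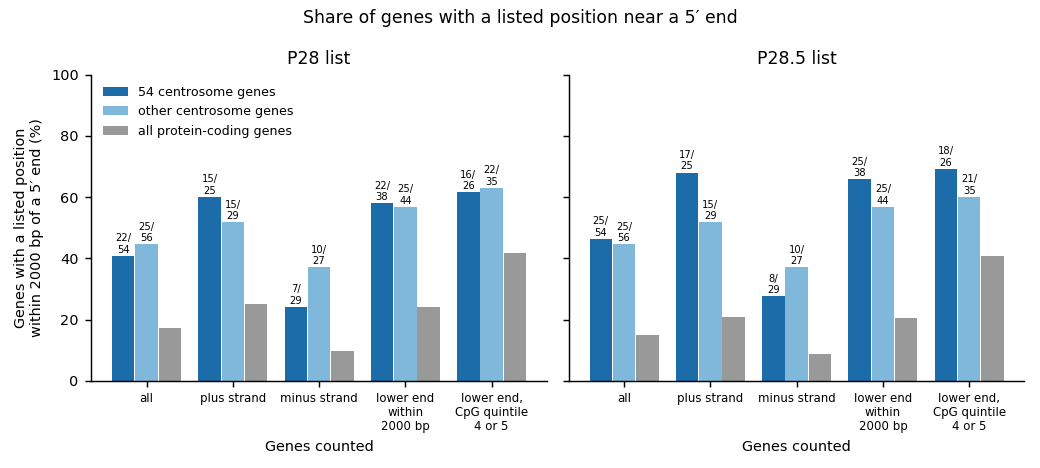
Percent of genes with a position listed no more than 2000 bp from a 5′ end at P28 and P28.5, for the 54 genes, for 56 other centrosome genes and for all protein-coding genes. Bars start at 0, the numbers above are genes listed over genes counted, and no error bars are drawn because each list is one average. Bars of the 54 genes are above those of all protein-coding genes in every class drawn, and shares by name are not drawn.

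Starts of the 54 genes were rich in CpG, which moved with being listed over all genes. The observed over expected CpG ratio, taken 500 bp to either side of the outermost 5′ end, had a median of 0.749 over the 54 genes and 0.516 over all protein-coding genes, and 38 of the 54 were in the upper 2 of 5 quintiles (17 and 21). Within the uppermost quintile, 8 of 21 genes were listed by position at P28 (38.1%) and 9 at P28.5 (42.9%), where 32.6% and 34.3% of all protein-coding genes were. In the quintile below it, 8 and 9 of 17 were (47.1% and 52.9%), beside 1242 and 1097 of all 4355 genes. With both a lower transcript end and a start in the upper 2 quintiles, 16 of 26 (61.5%) and 18 of 26 (69.2%) were listed, beside 41.7% and 40.6% of all such genes. Counted by name, the uppermost quintile gave 28.6% (P28) and 23.8% (P28.5), not above the 28.8% and 27% of all protein-coding genes. In the quintile below it, names gave 29.4% and 35.3%, beside 24.9% and 19.1%. With both a lower transcript end and a start in the upper 2 quintiles, names gave 38.5% and 42.3%, beside 34.7% and 31.3%. The part of CpG content in the counts was not tested.

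Among the 54 genes themselves CpG content was alike in listed and unlisted genes. Taking for each gene the highest ratio over its 5′ ends, the 26 genes listed near a start at either age had a median of 0.824 and the 12 that had a lower end but no listing near a start had 0.804. The 16 genes without a lower end had 0.797. Over all protein-coding genes the medians were 0.791 for listed and 0.507 for unlisted genes. The highest ratio can only rise with the number of annotated 5′ ends. It mattered for genes with a remote outermost start: Cetn3 had a ratio of 0.051 there and 0.829 at its listed 5′ end, Cntln 0.213 and 0.976, and Cep70 0.21 and 0.829. Cep89 had the lowest highest ratio of all 54 genes, 0.546.

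**Figure D4:**
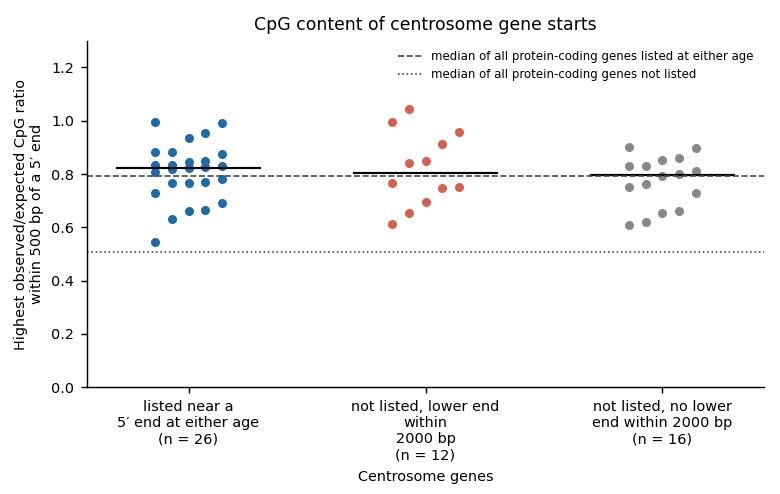
Highest observed over expected CpG ratio around a 5′ end (500 bp to either side) for each of the 54 genes, by listing, with a black bar at each group's median. Dashed and dotted lines are the medians of all protein-coding genes listed (0.791) and not listed (0.507), and all 3 groups of points overlap and centre near the dashed line.

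Short motifs in the 300 base windows were counted as exact matches on both strands in the 46 of the 54 genes that matched an entry of the RefSeq promoter table. The first entry of each gene was used. The window counted can therefore differ from the one printed above and from the 5′ end that carried listed positions. Cntrob, Cep76, Pcm1, Cep350, Cep120, Sfi1, Cep192 and Sdccag8 had none. GGGCGG, the GC box, was in 73.9% of the 46 starts and in 46.3% of 17492 protein-coding promoters. Of the 21 genes listed by position at either age 76.2% held it in that window, and so did 72% of the other 25. CCAAT was in 50% of the 46 and 39% of all promoters, and the windows of Stil and Cep89 printed above each held 3 copies. CAACNG was in 52.2% and 34.2%, TTTGAA in 26.1% and 16.5%, and CCGGAAG in 19.6% and 11.9%. GTTGCC, a core of the motif named for RFX factors of ciliary genes, was in 19.6% and 12.7%, with 9.52% of the listed and 28% of the other genes. The other 25 include genes with no lower transcript end near a start, which could hardly be listed. A difference between listed and other genes can therefore not be read as one in ARID2 signal, and none was tested. CGCATGCG was in 2 of the 46 windows, both of listed genes, and TGACGTCA was in 1. The Cntln window printed above holds CGCATGCG. Such matches describe the letters of these windows and not factor binding.

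A second set of 56 centrosome genes, taken from general knowledge of the organelle, was counted for comparison. Of these, 20 were named at P28 (35.7%), 17 at P28.5 (30.4%) and 12 at both ages, so that their shares were near those of the 54 genes. Over all protein-coding genes 16.8%, 11.6% and 8.48% were. Named at both ages were the gamma-tubulin ring genes Tubgcp3 and Mzt1, the spindle pole kinase Aurka and its activator Bora, the linker kinase Nek2, and Cep19, Cep43, Wdr62, C2cd3, Lrrc45, Tedc1 and Tubd1. Plk4, the kinase that starts centriole duplication and acts with Stil, was named at P28 alone with 2 positions within 28 bp of a 5′ end. Tubg1, Tubgcp6, Pibf1, Ssx2ip, Rttn, Tube1 and Kiz were also named at P28 alone, and Tubgcp2, Tpx2, Ccdc14, Aspm and Spice1 at P28.5 alone. Pibf1 had a position under another name near its start at P28.5. The other 31 genes were not named at either age. Among them was Plk1, which had no nearby position either, although the paper reports ARID2 enrichment and peaks near its promoters at P28. By position 25 of the 56 were listed at each age (44.6%), beside 22 and 25 of the 54 and 17.3% and 14.8% of all protein-coding genes.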

How the data were processed

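ARID2 CUT&RUN was measured in 2 libraries at each age, and the lists analysed were deposited by the authors as averages of these. Per the paper's methods, the authors trimmed reads with TrimGalore, aligned them to mm10 with Bowtie2, processed them with SAMtools and deepTools, scaled them with csaw, took log2 ratios to the control, averaged replicates with WiggleTools and grouped RefSeq TSSs by k-means. The 2 deposited lists hold 11553 rows at P28 and 8514 at P28.5, as 7144 and 5193 distinct positions. Their numbers are genomic positions, which the authors deposited without a signal, so the depth behind a listed TSS is unknown and no interval could be given. BRG1 libraries, controls, signal tracks and peaks were not analysed here.

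Names were matched to symbols or to a synonym of 1 gene in RefSeq for GRCm38.p6 (120323 transcripts of 49598 genes). Positions were compared with 5′ ends on the same chromosome without regard to strand, within 2000 bp. CpG ratios used 500 bp on either side of a 5′ end. Matching was run on simulated lists of genes planted under their current symbols near annotated 5′ ends. Those lists held no synonyms, neighbours' names or lower coordinates of minus-strand genes, so they could not check how these were handled. Python 3.11.15, numpy 2.4.6, pandas 2.3.3, pysam 0.24.0, scipy 1.17.1 and matplotlib 3.10.9 were used. Alternatives were the use of synonyms, the window, the choice of 5′ end, the strand and the annotation. All 54 genes are accounted for by name. Positions, distances or ranges are given for genes named at 1 age, for genes whose count by name and by position differed, and for Odf2. Other genes are described mostly by counts and ranges. The genes, roles and comparison list were chosen with earlier results of these data known, and the list of genes with a nearby lower transcript end was drawn after the lists were seen.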

Additional observations from a re-analysis of the deposited data

How the results depend on the processing

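Of 38 alternatives 33 were labelled the same as the main value and 5 moved, all 5 of them shares over all genes. Every count of centrosome genes stayed within 1.5 times its main value. Some alternatives only took a part of the 54 genes, so that a near count need not mean a near share. Plus-strand genes alone gave 15 of 25 by position at P28 (60%), where all genes gave 22 of 54 (40.7%). Counting only rows within 2000 bp of the named gene's own 5′ end left 15 of 18 genes at P28 and all 17 at P28.5. With a 500 bp window 20 genes were listed by position at P28 and 23 at P28.5, with 5000 bp 23 and 25, and with the outermost 5′ end alone 20 and 22. Requiring that the nearest 5′ end of any gene be that of the centrosome gene gave 16 and 18. GENCODE M21 ends, added after the data were seen, gave 22 and 24. For these alternative counts by position no share over all protein-coding genes was taken at the same setting. Whether the 54 genes differed from all genes there was not tested. The percent of genes listed by name moved with the genes counted. At P28 it was 16.8% of protein-coding genes, 8.23% of all annotated genes, 26% of plus-strand protein-coding genes, and 13.7% with rows near the gene's own 5′ end alone. At P28.5 it was 11.6%, 5.44% of all annotated genes and 20.4% of plus-strand protein-coding genes. These alternatives change the genes or rows counted by construction. No paired analysis was possible because the lists are averages with no value per replicate, and for the same reason no replicate could be left out.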
